A study of Mus musculus with 16 samples.

Results

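The 36 genes described here are those of glycolysis and of the response to low oxygen, picked by name and role with earlier results of these data known. They comprise 14 glycolytic enzymes, 2 lactate dehydrogenase subunits, 4 glucose and lactate transporters, 3 regulators of glycolytic flux, 3 subunits of the hypoxia-inducible factors (HIF), 3 oxygen sensing genes and 7 HIF target genes. All 36 were found by symbol among the 50686 genes of the deposited tables, and all 36 passed the filter on low counts that left 15308 genes for testing. The study measured bulk RNA of hematopoietic stem cells (HSCs) from the bone marrow of C57BL/6J mice. The mice were injected intraperitoneally with 100 µL every 48 h over 85 days. The vehicle group received 20% DMSO and 40% PEG 400 in PBS. In this same solvent the palbociclib group received 30.4 mg/kg of palbociclib, an inhibitor of the cell cycle kinases CDK4 and CDK6, and the rapamycin group received 6.4 mg/kg of rapamycin, an inhibitor of the mTOR complex 1 kinase. The combination group received both drugs at these doses. Each group had 4 libraries, and each library was made with a low-input kit from 10000 sorted HSCs in G0/1, so cells in S phase or mitosis were gated out before RNA was taken. The labels name no separate animal for each library, so p-values here reflect only how far these libraries differ, a spread that may be technical.

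Glycolysis turns glucose into pyruvate, and lactate dehydrogenase turns pyruvate into lactate, which lets the pathway run without oxygen. When oxygen is plentiful, prolyl hydroxylases of the Egln family mark the HIF alpha subunits, the Vhl protein binds the marked form, and the subunit is degraded. When oxygen is short, HIF alpha pairs with Arnt and raises transcription of glycolytic enzymes, of transporters and of its own hydroxylases. HSCs live in poorly oxygenated marrow and are known for relying on glycolysis while quiescent, and mTOR complex 1 is known to raise HIF-1 alpha and glycolytic genes.

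HIF binds the core letters ACGTG or GCGTG, and the promoters of the members show how common these letters are among them. RefSeq promoters of build GRCm38.p6, each from 250 bases before to 50 after a transcription start, were at hand as 48 windows for 32 of the 36 members. ACGTG or GCGTG stood on either strand in 37 of the 48 windows, or 77.1%, beside 43.8% of all 32851 windows of the same length. ACGTG alone stood in 50.0% of the members' windows and 19.6% of all, and GCGTG in 56.3% and 32.4%. In all, 29 of the 32 members had at least 1 window with a match. The stretches upstream of the start follow for 5 members, with the matches in capitals. They were taken from members that hold a match and are named in the results, so a match in each was set in advance. CACGTG holds ACGTG on both strands and was counted as 2 matches.
Egln1, chr8:124949325-124949504, minus strand: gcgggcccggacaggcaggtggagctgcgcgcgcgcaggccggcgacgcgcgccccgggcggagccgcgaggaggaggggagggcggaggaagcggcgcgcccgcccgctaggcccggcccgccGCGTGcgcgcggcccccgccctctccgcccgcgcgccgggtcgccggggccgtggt
Slc16a1, chr3:104638414-104638663, plus strand: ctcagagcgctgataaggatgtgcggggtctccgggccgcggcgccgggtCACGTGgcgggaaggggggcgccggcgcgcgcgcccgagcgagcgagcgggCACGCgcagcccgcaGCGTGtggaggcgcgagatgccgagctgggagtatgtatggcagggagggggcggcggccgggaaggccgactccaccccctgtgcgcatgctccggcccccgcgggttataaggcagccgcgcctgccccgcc
Ldha, chr7:46845554-46845803, plus strand: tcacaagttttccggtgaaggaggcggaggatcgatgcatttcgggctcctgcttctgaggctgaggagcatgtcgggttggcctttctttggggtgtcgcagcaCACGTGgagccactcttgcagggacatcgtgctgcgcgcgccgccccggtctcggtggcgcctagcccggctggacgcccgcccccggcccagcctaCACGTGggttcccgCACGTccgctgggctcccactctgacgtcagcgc
Pgk1, chrX:106186850-106187099, plus strand: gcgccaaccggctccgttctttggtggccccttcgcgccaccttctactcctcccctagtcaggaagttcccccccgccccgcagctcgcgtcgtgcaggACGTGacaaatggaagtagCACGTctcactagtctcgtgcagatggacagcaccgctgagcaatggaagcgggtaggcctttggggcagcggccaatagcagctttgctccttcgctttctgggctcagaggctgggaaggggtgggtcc
Hk2, chr6:82774455-82774704, minus strand: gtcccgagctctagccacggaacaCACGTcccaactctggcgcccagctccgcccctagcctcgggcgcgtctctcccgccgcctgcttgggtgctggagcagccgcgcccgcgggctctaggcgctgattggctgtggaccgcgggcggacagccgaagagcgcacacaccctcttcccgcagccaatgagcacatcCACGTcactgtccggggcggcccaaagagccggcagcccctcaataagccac
These stretches hold 5 ACGTG matches for Ldha, 2 each for Slc16a1, Pgk1 and Hk2, and 2 GCGTG matches for Slc16a1. The Egln1 stretch holds 1 GCGTG match and stops where the longer GENCODE transcript begins. A match is a string of letters and not a measured binding site, and no binding was measured in this study.

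Total counts per library ran from 10133860 to 15328830, and 16570 to 20418 genes were detected per library. All 10 HSC marker genes were detected, from Ly6a at a median of 483.5 TPM (transcript abundance scaled for gene length, with the same total in every library) to Fgd5 at 2.81. Markers of other cells were present in unequal amounts. The 11 neutrophil markers took 0.761% to 8.32% of a library's counts and the 7 B cell markers 0.00545% to 3.19%. Genes of proliferation, 7 in number, took 0.0934% ± 0.0079 (SD, n = 4) of the counts in vehicle libraries and 0.150% ± 0.0075 in palbociclib libraries, without overlap. Among all 16 libraries, vehicle replicate 3, rapamycin replicate 3 and vehicle replicate 4 had the lowest median correlation with the others, at 0.866, 0.871 and 0.880. Vehicle replicate 3 was the lowest of all 16 libraries for 9 of the 36 genes, rapamycin replicate 1 for 8 and rapamycin replicate 3 for 6. In bulk RNA, fewer cells of a type and less RNA per cell cannot be told apart.

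Levels between genes are given in TPM. In vehicle libraries the most abundant member was Ldha, the subunit of lactate dehydrogenase that favours lactate formation, at 1770 TPM ± 500 (SD, n = 4). It stood above every other member without overlap and at the 99.6th percentile of the tested genes. Pkm (844 TPM), Aldoa (811), Eno1 (748), Gapdh (720), Gpi1 (601) and Tpi1 (397), enzymes of the pathway's trunk, followed. The median of the 36 genes was 40.1 TPM, beside 10.4 TPM over all tested genes.

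Of the 35 neighbouring pairs in this order, 32 overlapped between libraries, so most neighbours cannot be ranked. Among the transporters, the glucose transporter Slc2a3 (105 TPM) stood above Slc2a1 (42.6 TPM), and the lactate transporters Slc16a1 (25.0 TPM) and Slc16a3 (18.0 TPM) were lower. Apart from Vhl, near the middle of the order, the genes of oxygen sensing and of HIF itself were in its lower part. Hif1a had 10.6 TPM, Arnt 13.9 TPM, Vhl 37.0 TPM, Egln3 19.0 TPM and Egln1 7.51 TPM, and Epas1, which encodes HIF-2 alpha, was last at 0.208 TPM. Among the HIF targets, the mitophagy receptor Bnip3l led at 315 TPM and Ankrd37 was lowest at 3.64 TPM.

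**Figure D1:**
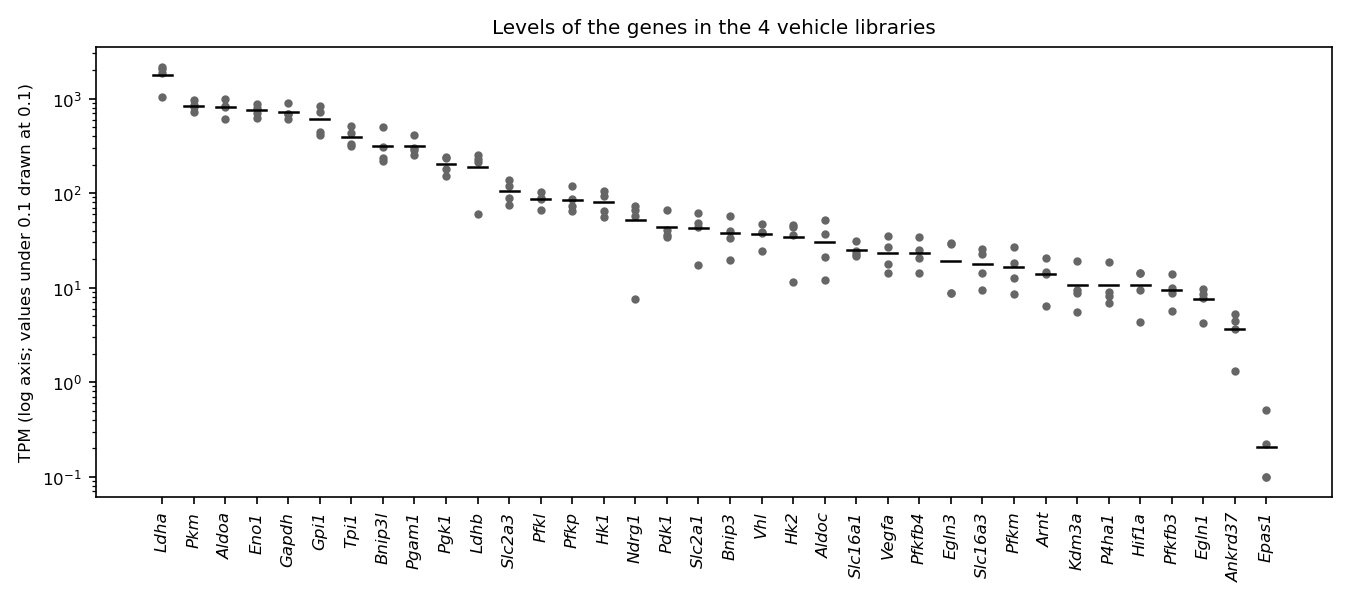
TPM (vertical log axis) of the 36 genes in the 4 vehicle libraries (points), ordered by their mean (dash). Ldha stands at the left at 1770 TPM and Epas1 at the right at 0.208 TPM, and most neighbours overlap.

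Isoform shares of RNA were led by a single gene at some steps and divided at others. Aldoa made up 94.7% to 99.1% of the summed Aldoa and Aldoc TPM in every library, and Pfkm was the minor phosphofructokinase at 4.77% to 12.3%, with Pfkl at 37.1% to 53.3% and Pfkp at 39.1% to 56.6%. The Ldha share of lactate dehydrogenase TPM was 89.7% ± 6.2 in the vehicle group and 90.1% ± 3.7 with rapamycin, and it was 94.8% ± 1.6 with palbociclib and 95.3% ± 1.9 with the combination (SD, n = 4). Those groups overlapped in part, since vehicle replicate 4 reached 96.8%. Hif1a made up 94.9% to 100.0% of Hif1a and Epas1 TPM in 15 libraries and 53.7% in rapamycin replicate 3.

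Apart from Hk2, hexokinase and lactate transporter use varied between libraries more than between groups. The Hk2 share of the hexokinase TPM was 20.35% ± 7.6 in vehicle and 8.12% ± 3.6 with palbociclib (SD, n = 4). It was 9.86% ± 4.92 with rapamycin and 12.64% ± 1.07 with the combination. Vehicle replicate 4, at 9.32%, lay within the range of the treated libraries, and the other vehicle libraries lay above it. Hk3, a hexokinase of myeloid cells that is no member, held from 13.9% (rapamycin replicate 1) to 53.2% (palbociclib replicate 3) of the summed Hk1, Hk2 and Hk3 TPM. Its share was 13.9%, 16.1%, 16.1% and 18.4% in rapamycin replicate 1, palbociclib replicate 2, vehicle replicate 1 and combination replicate 2. These were the 4 libraries with the lowest neutrophil marker shares, 0.761%, 1.14%, 1.14% and 0.996%. Vehicle replicate 4 also had a low Hk3 share of 14.4%, at a neutrophil marker share of 1.96%. The Slc16a3 share of Slc16a1 and Slc16a3 ranged from 18.4% to 65.7%, and was 20.5%, 18.4%, 23.0% and 37.7% in the same 4 libraries. The part of neutrophil RNA in these shares was not tested.

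**Figure D2:**
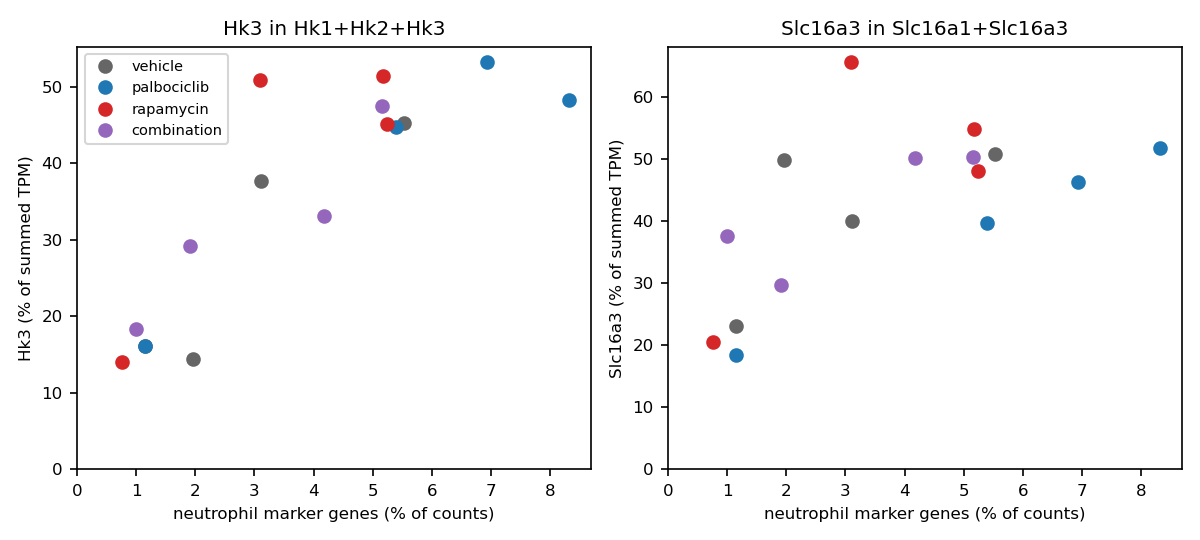
Share of Hk3 among the 3 hexokinases (left) and of Slc16a3 among the 2 lactate transporters (right), as a percentage of summed TPM, against the share of counts in 11 neutrophil marker genes, with 1 point per library coloured by group. The 4 libraries with the lowest neutrophil marker shares have Hk3 shares of 13.9% to 18.4%, and the points of vehicle replicate 1 and palbociclib replicate 2 coincide in the left panel.

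Between libraries, levels are given as CPM, the share of a library's counts after scaling of the totals by TMM factors. Comparisons were tested with edgeR's quasi-likelihood test over all 15308 genes, with Benjamini-Hochberg adjustment and a call at an adjusted p under 0.05. The contrasts share libraries, so their values are set side by side and no agreement between them is counted. Over the 36 genes, the coefficient of variation across all 16 libraries was lowest for Pfkp (14.5%) and Aldoa (15.8%) and highest for Ankrd37 (72.6%) and Epas1 (192%).

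**Figure D3:**
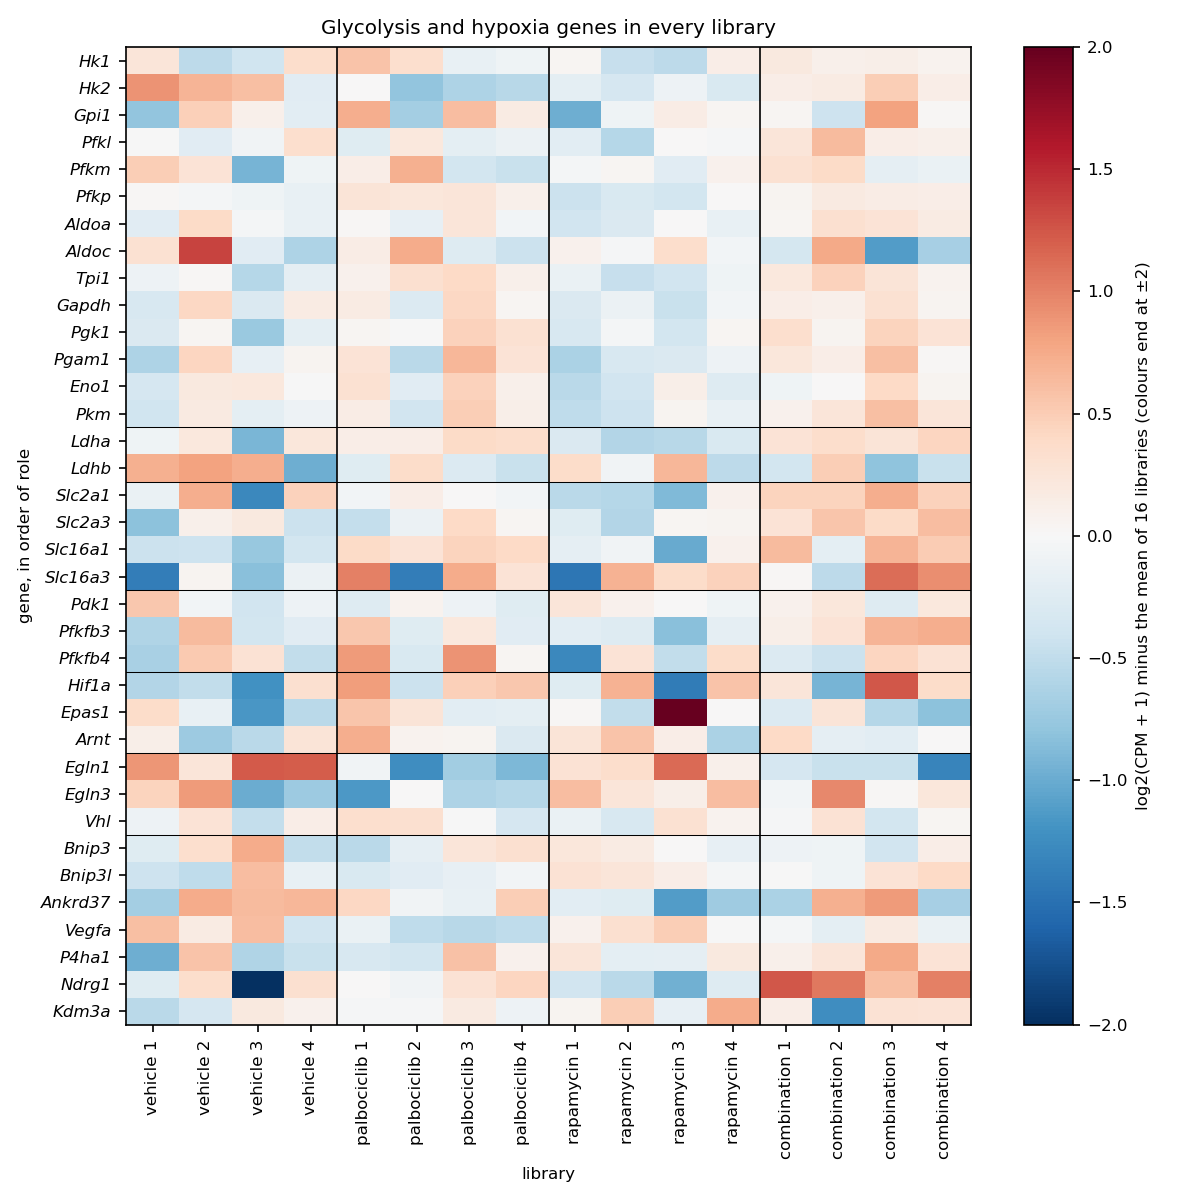
log2(CPM + 1) of the 36 genes (lines, in order of role) in the 16 libraries (columns, by group), each minus the gene's mean over all libraries. Vehicle replicate 3 shows low values of Ndrg1, Slc2a1 and Ldha, Egln1 is low in the palbociclib and combination columns, and the colours end at ±2.

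The clearest pattern was with palbociclib. In the contrast of the 8 libraries of mice given palbociclib, with or without rapamycin, against the 8 of mice not given it, Egln1 fell and Slc16a1 rose, while most glycolytic enzymes had small positive fold changes that did not pass the test. These were 2 calls among 36 genes, 1 in each direction, beside 42 calls or 0.274% of all tested genes. DESeq2 called 7 of the 35 members it gave an adjusted p, beside 3.57% of all genes. These were Egln1, lower, and Slc16a1, Tpi1, Pfkp, Pgk1, Ldha and Ndrg1, higher. Without adjustment, 12 of the 36 had a p under 0.05 (13.8% of all tested genes), of which 10 were higher (6.89%) and 2 lower (6.93%). The median log2 fold change of the 36 was 0.26, beside -0.02 over all tested genes, and 25 of 36 were positive (48.3% of all). In 3 of the 36 genes the 8 and 8 libraries did not overlap, beside 0.300% of all.

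Egln1 encodes the main oxygen sensing prolyl hydroxylase. It lies on chromosome 8, 124908587 to 124949324 on the minus strand in GRCm38. Its CPM was 21.5, 13.5, 27.6 and 27.4 in vehicle libraries and 14.0, 14.7, 25.7 and 12.1 in rapamycin libraries. It was 10.7, 4.15, 6.57 and 5.52 with palbociclib and 8.70, 7.96, 8.02 and 3.91 with the combination. Every library with palbociclib was below every library without it, 6.94 ± 2.34 against 19.6 ± 6.72 CPM (SD, n = 8). The log2 fold change was -1.48 ± 0.27 (SE), a 2.78-fold lower level (edgeR adjusted p = 0.0298). In the separate contrasts it was -1.74 ± 0.38 for palbociclib against vehicle, -1.65 ± 0.38 for combination against vehicle and -1.21 ± 0.37 for combination against rapamycin, with no overlap and edgeR adjusted p of 0.212, 0.218 and 0.295.

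Slc16a1 encodes the lactate transporter MCT1 and lies on chromosome 3, 104638668 to 104658462 on the plus strand. Its CPM was 96.5, 97.4, 76.5 and 101 in vehicle libraries and 114, 124, 64.1 and 139 in rapamycin libraries. It was 169, 157, 178 and 173 with palbociclib and 201, 114, 209 and 186 with the combination. The palbociclib libraries stood above all vehicle libraries, and combination replicate 2 fell within the range of the rapamycin libraries. Averaged, the level was 173 ± 29.5 against 102 ± 24.2 CPM (SD, n = 8), a log2 fold change of 0.78 ± 0.16 (SE, edgeR adjusted p = 0.0464). All 8 libraries with palbociclib exceeded the median of the 8 without.

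Both calls lie near the threshold. Leaving out single libraries, Egln1 passed in 6 of 16 fits, those without vehicle replicate 2, 3 or 4, palbociclib replicate 1 or 2, or rapamycin replicate 4, with log2 fold changes of -1.63 to -1.33 and edgeR adjusted p of 0.0221 to 0.0881 over the 16. Slc16a1 passed in 1 of 16, that without combination replicate 2, with 0.69 to 0.86 and adjusted p of 0.0281 to 0.128. With neutrophil and B cell marker shares as covariates the adjusted p was 0.0342 for Egln1 and 0.0659 for Slc16a1, and without the 3 libraries of lowest correlation it was 0.0996 and 0.0761. Neither passed with limma-voom (0.05002 and 0.0553) or with limma on log2(TPM + 1) (0.0589 and 0.0814) and log2(TPM + 0.1) (0.0680 and 0.0782), and with the replicate block Slc16a1 did not pass (0.0642).

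Markers of other cells and of proliferation also moved with this contrast. Of the 7 proliferation genes 1 was called, higher, and their share was 0.0908% to 0.132% of counts with the combination and 0.0954% to 0.129% with rapamycin, beside the separate ranges of palbociclib and vehicle given above. Of the 7 B cell markers 4 and of the 8 erythroid markers 3 were lower at an unadjusted p under 0.05, beside 6.93% of all genes, and edgeR called none. Positive fold changes were found in 2 B cell and 2 erythroid markers, beside 48.3% of all genes. The erythroid markers differed between the arms. For palbociclib against vehicle 4 were positive and 4 negative, with a median log2 fold change of -0.12. For combination against rapamycin 1 was positive and 7 negative, with a median of -2.26. Neutrophil marker shares were 2.93% ± 1.91 in vehicle and 5.45% ± 3.11 with palbociclib, but 3.57% ± 2.12 with rapamycin and 3.06% ± 1.94 with the combination (SD, n = 4). Of the 10 HSC markers 9 had a negative and 1 a positive fold change in the averaged palbociclib contrast, beside 48.3% positive over all genes. Their median log2 fold change was -0.22 (-0.02 over all genes). At an unadjusted p under 0.05, 1 HSC marker was lower, beside 6.93% of all genes, and edgeR called none. The part of HSC markers, of proliferation genes and of erythroid RNA in the result was not tested.

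**Figure D4:**
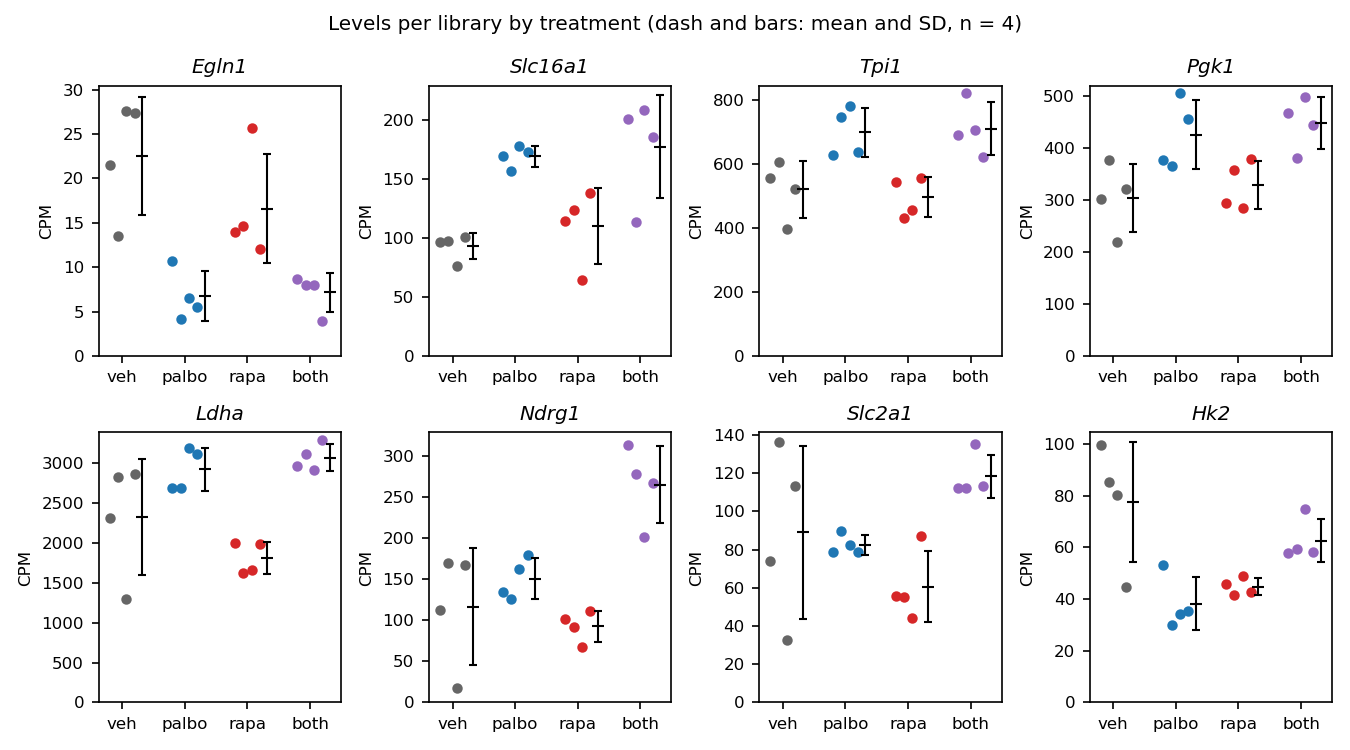
CPM (vertical axes from 0) of 8 genes in each library, grouped as vehicle (veh), palbociclib (palbo), rapamycin (rapa) and combination (both), with the mean and SD of 4 libraries beside the points. Egln1 is below 11 CPM in all 8 libraries with palbociclib, and Ndrg1 is at 201 to 313 CPM in the combination libraries.

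Of the 14 glycolytic enzymes, none passed edgeR's adjusted test in the averaged palbociclib contrast, while DESeq2 called Tpi1, Pfkp and Pgk1 (adjusted p = 0.00394, 0.00949 and 0.0188). In edgeR's fit 12 had a positive fold change, beside 48.3% of all genes, and 5 had an unadjusted p under 0.05, all higher, beside 6.89%. Tpi1, triosephosphate isomerase, was 704 ± 74.2 against 509 ± 72.3 CPM (SD, n = 8) without overlap, or 0.47 ± 0.11 on the log2 scale (edgeR adjusted p = 0.0848). In vehicle its CPM was 556, 607, 398 and 522, with palbociclib 628, 745, 781 and 638, with rapamycin 542, 432, 455 and 557, and with the combination 690, 822, 707 and 622. The palbociclib libraries of each arm thus stood above all libraries without it. Pfkp, the platelet form of phosphofructokinase, was 145 ± 7.14 against 115 ± 14.1 CPM, 0.34 ± 0.08 (adjusted p = 0.0954), also without overlap. Its CPM was 131, 125, 122 and 116 in vehicle, 154, 150, 152 and 138 with palbociclib, 94.6, 104, 98.9 and 129 with rapamycin, and 134, 145, 143 and 141 with the combination. Pgk1, phosphoglycerate kinase, had 0.47 ± 0.12 (adjusted p = 0.111), and Pgam1 and Pkm, a mutase and the pyruvate kinase of the lower pathway, had 0.42 ± 0.17 and 0.39 ± 0.14. Hk2 and Aldoc were the 2 enzymes with a negative fold change, -0.27 ± 0.16 and -0.28 ± 0.31.

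Some of these genes share sequence. Pseudogenes and other copies with at least 90% identity over 300 bases held 13.6% of the joint counts of Gapdh and its copies, 6.76% for Eno1, 7.21% for Bnip3l and 5.24% for Pgk1, so those levels are uncertain as single genes. Pfkp overlaps Pitrm1 on the opposite strand by 748 bases, Pfkm overlaps Senp1, Tpi1 overlaps Spsb2 by 34 bases, and Ankrd37 overlaps Ufsp2. The counts of Pitrm1, Senp1, Spsb2 and Ufsp2 were 76.5%, 150%, 4.82% and 3961% of those of Pfkp, Pfkm, Tpi1 and Ankrd37. Whether counting used strand is not stated in the labels, so reads in such stretches may not be separated.

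Among the other roles, all 4 transporters had positive fold changes in the averaged palbociclib contrast, with Slc2a3 at 0.40 ± 0.16 (edgeR adjusted p = 0.290), Slc2a1 at 0.43 ± 0.22 (0.401) and Slc16a3 at 0.60 ± 0.37 (0.509). Ldha had 0.54 ± 0.14 (adjusted p = 0.112) and Ldhb, the subunit that favours pyruvate, -0.48 ± 0.26 (0.425). Pfkfb3, which makes the activator of phosphofructokinase, had 0.52 ± 0.21 (0.292). The 7 HIF targets did not share a direction. Ndrg1, a stress response gene, had 0.94 ± 0.30 (0.186) and Vegfa, the vascular growth factor, -0.51 ± 0.16 (0.176), and 3 of the 7 were positive. Hif1a had 0.58 ± 0.34 (0.475) and Vhl 74.8 ± 16.4 CPM in vehicle and 81.1 ± 17.0 CPM in palbociclib libraries.

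**Figure D5:**
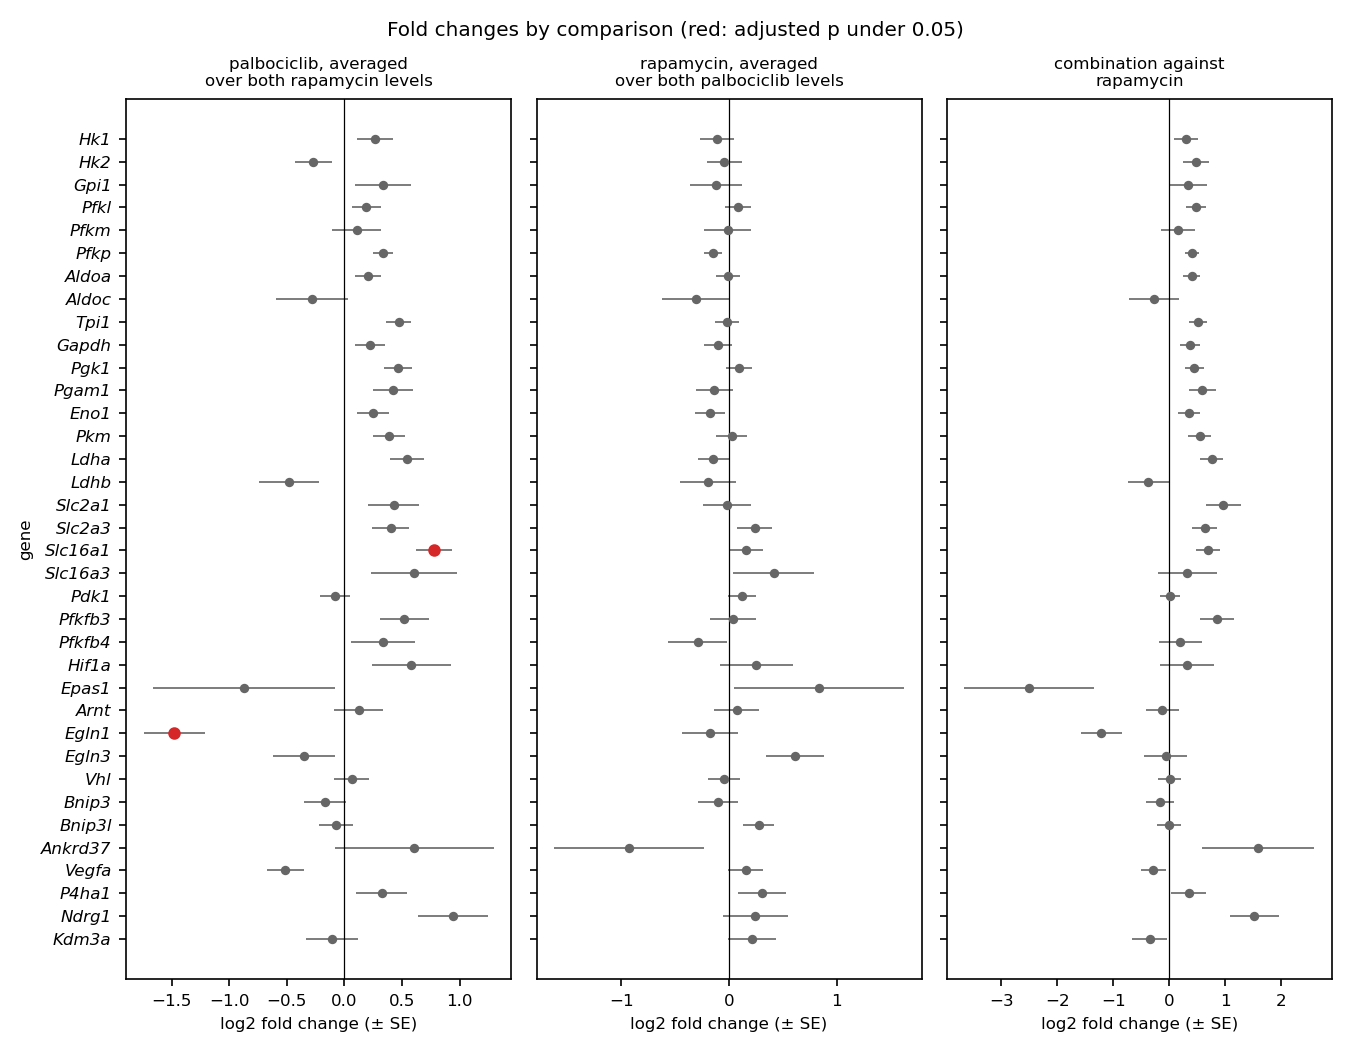
Log2 fold change ± SE of the 36 genes for palbociclib averaged over both rapamycin levels (left), rapamycin averaged over both palbociclib levels (middle) and combination against rapamycin (right), with a horizontal scale per panel. Red marks the 2 calls by edgeR, Egln1 at -1.48 and Slc16a1 at 0.78 in the left panel.

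Palbociclib against vehicle alone, 4 libraries each, gave no call among the 36 genes and none among all tested genes (0%). Its median log2 fold change over the members was 0.16 (-0.03 over all genes). Without adjustment 7 members had a p under 0.05, beside 9.51% of all, and 3 were higher and 1 lower without overlap, beside 2.83% and 2.21%. The higher were Slc16a1 (0.87 ± 0.22, edgeR adjusted p = 0.269), Tpi1 (0.42 ± 0.16, 0.418) and Pfkp (0.27 ± 0.12, 0.493), and the lower was Egln1. DESeq2 called 3 of the 36 here, Egln1, Hk2 and Slc16a1, beside 0.795% of all genes, and none of the limma fits called any member.

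The contrast of combination against rapamycin, which asks what palbociclib adds in mice given rapamycin, held the widest set of differences. None of the 36 was called by edgeR, beside 5 genes or 0.0327% of all tested. Without adjustment, 15 of 36 had a p under 0.05, beside 9.79% of all genes. In 14 of 36 the combination libraries were all above the rapamycin libraries, beside 4.98% of all genes, and in 1 all below, beside 3.87%. The median log2 fold change was 0.34 (-0.02 over all genes) and 26 of 36 were positive (48.1% of all). Among the 14 glycolytic enzymes, 13 were positive and 9 higher without overlap.

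Ldha, on chromosome 7 at 46841475 to 46855627, was 1996, 1624, 1659 and 1981 CPM with rapamycin and 2965, 3109, 2914 and 3283 CPM with the combination. The log2 fold change was 0.76 ± 0.20 (SE, edgeR adjusted p = 0.252). Its vehicle libraries spread from 1302 to 2868 CPM, and its palbociclib libraries from 2684 to 3194. The combination libraries were above all vehicle libraries as well.

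Ndrg1 was 101, 91.3, 67.3 and 111 CPM with rapamycin and 313, 277, 201 and 267 CPM with the combination, a log2 fold change of 1.51 ± 0.44 (adjusted p = 0.265). In vehicle it was 112, 170, 17.6 and 167 CPM and with palbociclib 134, 126, 162 and 179 CPM. The combination libraries were the 4 highest of all 16, and vehicle replicate 3 was far below the rest. Against vehicle the combination gave 1.18 ± 0.43 (adjusted p = 0.338).

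The glucose transporter Slc2a1 was 55.9, 55.0, 44.0 and 87.3 CPM with rapamycin and 112, 112, 135 and 114 CPM with the combination, 0.97 ± 0.31 (edgeR adjusted p = 0.310). Slc2a3 was 317, 250, 387 and 391 CPM with rapamycin and 456, 554, 492 and 578 CPM with the combination, 0.63 ± 0.23 (0.358). Both glucose transporters were thus higher in every combination library than in any rapamycin library. The flux regulator Pfkfb3 was 18.2, 17.7, 11.4 and 18.6 CPM with rapamycin and 23.1, 25.9, 34.5 and 36.0 CPM with the combination, 0.86 ± 0.30 (0.343).

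Among the enzymes, Pkm was 1198, 1272, 1757 and 1524 CPM with rapamycin and 1793, 2005, 2561 and 1999 CPM with the combination, 0.54 ± 0.20 (edgeR adjusted p = 0.361). Pgk1 was 294, 357, 284 and 378 CPM with rapamycin and 466, 381, 498 and 445 CPM with the combination, 0.45 ± 0.17 (0.389). The groups did not overlap in either enzyme, and in Pgk1 combination replicate 2 lay just above rapamycin replicate 4. Pgam1 was 314, 392, 398 and 453 CPM against 569, 537, 741 and 498 CPM, 0.59 ± 0.25 (0.440). Aldoa was 729, 776, 958 and 852 CPM against 971, 1189, 1145 and 1057 CPM, 0.40 ± 0.16 (0.405). In Pgam1 and Aldoa, too, every combination library was above the rapamycin libraries. Pfkl, the liver form of phosphofructokinase, was 203, 158, 234 and 230 CPM against 275, 364, 257 and 252 CPM, 0.48 ± 0.18 (0.358). Tpi1 had 0.52 ± 0.16 (0.291) and Pfkp 0.40 ± 0.12 (0.280). Gapdh and Hk2 were also without overlap, the former at 315 to 415 CPM with rapamycin and 446 to 534 CPM with the combination.

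Ldha and Ndrg1 passed the adjusted test in this contrast under some settings. DESeq2 called both (adjusted p = 0.0271 and 0.0336), beside 1.19% of all genes, as did edgeR on the libraries of the 2 groups alone (0.0453 and 0.0134) and edgeR without vehicle replicate 3 (0.0420 and 0.00728), a library that enters only through the shared spread. Without the 3 libraries of lowest correlation, 15 of 36 had an unadjusted p under 0.05, beside 11.8% of all genes, and Ndrg1 was called (0.0371). With neutrophil and B cell marker shares as covariates, 18 of 36 had such a p, beside 11.6%.

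Markers of other cells moved with this contrast. Of 8 erythroid markers, 5 were lower in the combination libraries without overlap, beside 3.87% of all genes, and their summed share was 0.0457% to 0.113% of counts with rapamycin and 0.00755% to 0.0299% with the combination. Of 5 megakaryocyte markers, 2 were lower without overlap, beside the same 3.87%. At an unadjusted p under 0.05, 2 were lower and 1 was higher, beside 9.79% of all genes in either direction. The summed share of these markers was 0.0597% to 0.174% with rapamycin and 0.0584% to 0.108% with the combination. The part of both in the result was not tested. Neutrophil marker shares were 3.57% ± 2.12 with rapamycin and 3.06% ± 1.94 with the combination (SD, n = 4). Proliferation genes took 0.114% ± 0.016 and 0.117% ± 0.018, and B cell markers 0.0649% ± 0.0638 and 0.357% ± 0.313, in the same order. The summed B cell share was thus higher with the combination, but most of its genes were not. Of the 7 B cell markers 5 had a negative and 2 a positive fold change, beside 48.1% positive over all genes, with a median of -1.33. Without overlap 1 was lower, beside 3.87% of all genes, and 0 were higher.

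The combination against vehicle gave no call among members or among all genes (0%), and DESeq2 called 2 members, Egln1 and Slc16a1, beside 1.34% of all genes. Without adjustment 6 of 36 had a p under 0.05, beside 10.5% of all genes, and 28 of 36 were positive (48.4% of all), with a median of 0.19 (-0.02 over all). In 7 of 36 genes the combination libraries were higher without overlap, beside 3.38% of all genes. Slc16a1 stood at 0.93 ± 0.22 on the log2 scale (edgeR adjusted p = 0.218), Slc2a3 0.64 ± 0.23 (0.334), Pgk1 0.56 ± 0.17 (0.272) and Tpi1 0.45 ± 0.16 (0.317). The summed TPM of the 14 enzymes and both lactate dehydrogenase genes was 0.692% ± 0.096 of the total in the vehicle group and 0.643% ± 0.059 with rapamycin, beside 0.820% ± 0.059 with palbociclib and 0.873% ± 0.043 with the combination (SD, n = 4). By library this share overlapped between vehicle (0.610% to 0.812%) and palbociclib (0.770% to 0.891%) and did not overlap between vehicle and combination (0.830% to 0.931%).

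Rapamycin against vehicle left the 36 genes near the level of all genes. None was called, beside 1 gene or 0.00653% of all tested, and DESeq2 (0.565% of all genes) and the limma fits called none. Only 2 of 36 had an unadjusted p under 0.05, beside 7.65% of all genes, and in none were the libraries without overlap, beside 3.07%. The median log2 fold change was -0.12 (-0.01 over all genes), and 13 of the 14 glycolytic enzymes were negative (51.0% of all genes), with a median of -0.20. With limma on log2(TPM + 1) the member median was 0.03 (0.08 over all genes), and 10 of the 14 enzymes were negative, with a median of -0.06. Averaged over both palbociclib levels, rapamycin gave a median of -0.01, no call among all genes (0%), no member called by DESeq2 (0.263% of all genes) or the limma fits, and 1 member with an unadjusted p under 0.05, beside 4.64% of all. That member was Egln3, an oxygen sensing hydroxylase, at 50.5 ± 13.4 against 33.9 ± 19.0 CPM (SD, n = 8), 0.61 ± 0.27 (edgeR adjusted p = 1.00). Bnip3l followed with 0.28 ± 0.15 and Pfkp with -0.15 ± 0.08, which was 0.02 on both TPM scales.

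Hk2, the inducible hexokinase, behaved unlike the other enzymes. Its CPM was 99.5, 85.3, 80.3 and 44.8 in vehicle and 53.2, 30.1, 34.1 and 35.5 with palbociclib. It was 45.9, 41.7, 49.1 and 42.5 with rapamycin and 57.6, 59.5, 74.8 and 58.0 with the combination. Each drug alone was lower than vehicle apart from vehicle replicate 4, and the combination was above every library of either drug alone. The log2 fold change was -1.02 ± 0.23 for palbociclib (edgeR adjusted p = 0.212), -0.79 ± 0.23 for rapamycin (0.429) and 0.71 ± 0.23 for the combination against palbociclib (1.00). The interaction of the drugs, the difference between what palbociclib did with and without rapamycin, was 1.50 ± 0.32 for Hk2 (unadjusted p = 0.000270, adjusted p = 0.429 by edgeR, 0.0138 by DESeq2). Leaving out single libraries gave 1.36 to 1.70 with edgeR adjusted p of 0.0694 to 0.715.

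In that interaction edgeR called none of the 36 and none of all genes (0%), and DESeq2 called Hk2 alone among the 34 members it gave an adjusted p, beside 0.284% of all genes. Without adjustment 3 of 36 had a p under 0.05, beside 5.67% of all genes. The other two were Slc2a1 (1.08 ± 0.44, edgeR adjusted p = 0.83) and Pfkl (0.57 ± 0.25, 0.852). For the combination against palbociclib, which asks what rapamycin adds, none was called, beside 0% of all genes, 2 of 36 had an unadjusted p under 0.05, beside 2.85%, and 3 were higher without overlap, beside 2.23%. DESeq2 (0.125% of all genes) and the limma fits called none of the 36 there either. Egln3 had 0.90 ± 0.38 there, from 16.7, 38.9, 24.7 and 25.5 CPM with palbociclib to 37.0, 76.1, 39.4 and 45.1 CPM with the combination, with overlap.

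The lowest members gave the least certain values. Epas1 was at 0.000 to 2.32 CPM in 15 libraries and at 16.3 CPM in rapamycin replicate 3. Its log2 fold change for rapamycin against vehicle was 2.47 ± 1.16 (edgeR adjusted p = 0.645), and it was -0.48 without the 3 libraries of lowest correlation. Ankrd37, a HIF target, ranged from 0.000 to 2.88 CPM, and its fold change for rapamycin against vehicle, -1.91 ± 1.01 (0.727), rests on 0.344, 2.60, 2.33 and 2.42 CPM in vehicle and 0.873, 0.818, 0.000 and 0.316 CPM with rapamycin.

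The rest of the pathway was read from lists of textbook members. Among 27 tested other HIF targets, Bhlhe40, a transcriptional repressor, was the only call by edgeR in any of the contrasts. Its CPM was 91.1, 67.3, 65.7 and 43.0 in vehicle and 53.9, 35.6, 46.6 and 37.8 with palbociclib. It was 17.9, 14.2, 11.5 and 22.5 with rapamycin and 47.4, 56.3, 51.9 and 53.2 with the combination. The rapamycin libraries were below all 12 others. It fell by 2.01 ± 0.25 on the log2 scale with rapamycin against vehicle (edgeR adjusted p = 0.00721) and rose by 1.66 ± 0.25 in the combination against rapamycin (0.0245). It was the single gene that edgeR called for rapamycin against vehicle. That call was lost without rapamycin replicate 2 (edgeR adjusted p = 0.0729), on the libraries of these 2 groups alone (0.322) and with limma on log2(TPM + 1) (0.0502). The call in the combination against rapamycin passed in 8 of 16 fits that left out a library, with edgeR adjusted p of 0.0130 to 0.139. Those 8 each left out a vehicle or palbociclib library, which is not compared there. Without any 1 of the compared rapamycin or combination libraries that call was lost (edgeR adjusted p of 0.05105 to 0.139).

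In the averaged palbociclib contrast edgeR called none of the 27 other HIF targets, and the median was 0.11. At an unadjusted p under 0.05, 5 were higher (Pgm2, Bhlhe40, Tfrc, Plod1 and Car9) and 1 lower (Ddit4), beside 6.89% and 6.93% of all genes. For Bhlhe40 the average of 0.52 ± 0.17 joins opposite directions. It had -0.62 ± 0.24 for palbociclib against vehicle (edgeR adjusted p = 0.439) and 1.66 ± 0.25 for combination against rapamycin. Its interaction was 2.28 ± 0.34 (edgeR adjusted p = 0.0510). Pgm2, Plod1 and Car9 were named after their values were seen. In the contrast of palbociclib against vehicle, Tfrc, the transferrin receptor, was 65.6 ± 23.5 CPM with palbociclib against 21.3 ± 8.36 CPM in vehicle (1.63 ± 0.48, edgeR adjusted p = 0.329), and Ddit4, an inhibitor of mTOR complex 1, 3.43 ± 0.32 against 11.0 ± 7.24 CPM (-1.68 ± 0.55, 0.365). Neither group pair overlapped. In the combination against rapamycin Tfrc had 0.21 ± 0.47 (0.942) and Ddit4 -1.21 ± 0.54 (0.470), and averaged they had 0.92 ± 0.34 (0.233) and -1.45 ± 0.38 (0.111). Of the 11 tested HIF regulators edgeR called none in the averaged contrast, and 2 were lower at an unadjusted p under 0.05, Crebbp (-0.46 ± 0.17, 0.251) and Cited2 (-0.62 ± 0.21, 0.197). Crebbp, a HIF coactivator, was 34.4 ± 8.76 CPM with palbociclib against 49.4 ± 3.99 CPM in vehicle (-0.53 ± 0.24, 0.515). Cited2, which competes with HIF for that coactivator, was 29.3 ± 7.56 CPM with the combination against 52.7 ± 14.3 CPM with rapamycin (-0.85 ± 0.29, 0.335).

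Neighbouring metabolic routes showed no call by edgeR in the averaged palbociclib contrast either, and their counts at an unadjusted p under 0.05 stand beside 6.89% higher and 6.93% lower over all genes. The genes behind these counts were named after their values were seen, unless they met the rule for naming in another contrast. Of 13 genes of pyruvate entry into mitochondria, Pdk3 was higher at that p (0.40 ± 0.12, edgeR adjusted p = 0.148) and Pdk2 lower (-0.79 ± 0.26, 0.196). Pdk3, a kinase that blocks this entry, was 146 ± 30.4 CPM in vehicle, 198 ± 21.4 with palbociclib, 178 ± 27.5 with rapamycin and 227 ± 27.4 with the combination (SD, n = 4). Its log2 fold change was 0.63 ± 0.17 for combination against vehicle (edgeR adjusted p = 0.227). Of 8 genes of the pentose phosphate pathway, G6pdx, its first enzyme, was higher at that p (1.25 ± 0.33, edgeR adjusted p = 0.113). Of 13 other glycolytic isoforms and regulators none was at that p. Slc2a8, a hexose transporter, was named for palbociclib against vehicle, where it was 14.1 ± 2.99 CPM with palbociclib against 23.5 ± 2.10 CPM in vehicle (-0.74 ± 0.28, 0.426). Averaged it had -0.31 ± 0.20 (0.529), and in the combination against rapamycin 0.13 ± 0.28 (0.943).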

How the data were processed

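The data are 16 bulk RNA libraries of sorted HSCs. Per the submitters' processing notes, reads were handled with RSEM 1.3.0, SAMtools 1.3 and STAR 2.5.3a, with mm10 as build; the annotation is not given in the sources used here. Deposited by the authors were expected counts, already whole numbers, and log2(TPM + 1) values with a pseudocount of 1, from which TPM was recovered. GENCODE M21 (GRCm38) named 50462 of 50686 gene IDs. Groups came from the sample titles. The members and lists were chosen with earlier results of these data known.

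Counts were fitted with edgeR 4.0.16 in R 4.3.3, with filterByExpr (minimum count 10, total 15), TMM factors of 0.889 to 1.14 and a mean per group over 16 libraries, leaving 12 residual degrees of freedom. The biological coefficient of variation was 55.8%. The kept genes held 99.5% to 99.9% of the counts. The fit was also run on simulated counts with planted changes, and the outcome is not given here. Within groups, libraries correlated at 0.843 to 0.958 in log2 CPM, and none repeated another within sampling noise.

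Every member was described by role. Library values and tests were given where a member was called, had an unadjusted p under 0.05 without overlap of the groups, or was among the 3 of smallest p. From each pathway list, called genes were named, and otherwise up to 2 of smallest p without overlap. Alternatives were DESeq2 1.42.0, limma 3.58.1 on counts and on TPM, other filters and scaling, a replicate block, marker shares as covariates and single libraries left out. The fit without the 3 libraries of lowest correlation was chosen after seeing the data.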

Additional observations from a re-analysis of the deposited data

Results flagged for a closer look

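In 11 of 172 groups of 4 libraries, 144 of member levels and 28 of isoform shares, the highest or lowest library stood apart from the other 3 by a gap larger, relative to the group's range, than Dixon's 95% critical value. Chance alone flags about 1 in 20 groups. Rapamycin replicate 3 gave 3 of them: Epas1 at 16.3 CPM (the other 3 at 0.595 to 1.28), Pfkfb3 at 11.4 CPM (17.7 to 18.6) and the Hif1a share of Hif1a and Epas1 TPM at 53.7% (97.1% to 99.5%). In combination replicate 3, Hk2 stood at 74.8 CPM (57.6 to 59.5) and Slc2a1 at 135.4 CPM (112 to 114). Kdm3a was at 10.6 CPM in combination replicate 2 (29.4 to 32.8) and Egln1 at 3.91 CPM in combination replicate 4 (7.96 to 8.70). In vehicle, Ldhb was at 66.1 CPM in replicate 4 (214 to 229) and Ankrd37 at 0.344 CPM in replicate 1 (2.33 to 2.60). Vegfa was at 27.8 CPM in palbociclib replicate 1 (20.5 to 21.2), and the Aldoa share of Aldoa and Aldoc TPM was 96.2% in rapamycin replicate 1 (97.1% to 97.2%). None of these values was removed.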

How the results depend on the processing

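The number of members called depended on the tool. DESeq2 called 3 for palbociclib against vehicle, 2 for combination against vehicle, 2 for combination against rapamycin, 7 for palbociclib averaged and 1 for the interaction, where edgeR called 0, 0, 0, 2 and 0. DESeq2 also called more of all genes, 0.795%, 1.34%, 1.19%, 3.57% and 0.284% in that order. For palbociclib averaged, limma-voom and limma on log2(TPM + 1) and on log2(TPM + 0.1) called 0, as did the fit without the 3 libraries of lowest correlation, and marker shares as covariates called 1. Leaving out single libraries gave 0 to 2 members, beside 6 to 58 calls over all tested genes. For combination against rapamycin, the 2 groups alone gave 2, and the fit without the 3 libraries gave 1. Single libraries left out gave 0 to 2 members there, beside 0 to 16 calls over all tested genes. The cause was not tested.

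The median member log2 fold change for rapamycin against vehicle was 0.03 on both TPM scales. For the interaction it was 0.16 in the edgeR fit, 0.36 with covariates and 0.32 without the 3 libraries. Reversed were Epas1 for rapamycin against vehicle, -0.48 without the 3 libraries, and Pfkp for rapamycin averaged, 0.02 on both TPM scales. Of the counts of called members and the member medians under all alternatives, 377 stayed within the tolerance, a count within 1.5 times and a median within 0.146 (1 SD between libraries), and 33 did not. For single members in the contrasts where the naming rule listed them, 35 values lost a call, 15 gained one and 3 changed sign. Calls of other members, such as those of Ldha, Ndrg1 and Pgk1 by DESeq2 for palbociclib averaged, are not among the 15.

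With the replicate number as a block, 1 member, Egln1, was called for palbociclib averaged. Whether the numbers pair the libraries was not tested. Of 24 same-number pairs, 7 correlated above 0.1, and the pairs ran from -0.210 to 0.348. Pairs of unlike number in different groups ran from -0.388 to 0.308. Of 16 libraries, 7 correlated best with their own number.

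Depth limits Epas1 and Ankrd37, which had 394 and 257 counts over all 16 libraries.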
